A study of Mus musculus with 53 samples.

Results

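The 10 genes Isg15, Usp18, Ifit1, Ifit2, Ifit3, Mx1, Bst2, Rsad2, Ifi44 and Rtp4 are interferon-stimulated genes whose products act against viruses or tune that response. They were taken by symbol from the 43432 Ensembl genes listed in each RNA table, and each of the 10 symbols matched 1 row. The cells were mouse embryonic fibroblasts (MEF), of wild-type genotype (WT) or lacking ANP32E by knockout (KO), a histone chaperone that takes the variant histone H2A.Z off chromatin. In 1 experiment the cells received decitabine (DAC), a cytidine analogue that traps DNA methyltransferases and so lowers DNA methylation, or its solvent DMSO, with 2 DMSO libraries and 3 DAC libraries per genotype. The second experiment set an siRNA that targets H2A.Z (H2AZ siRNA) against a control one (NT siRNA) in both genotypes, with 3 libraries in each of its 4 groups. Dose, time, the age of the embryos and the number of embryos or KO lines are not stated in the labels. Replicate numbers follow the words "biol rep" there, or "rep" alone in KO with H2AZ siRNA. What made a replicate biological is not explained, and separate cultures are not mentioned. The p-values therefore measure the spread between these libraries, which may be technical.

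Type I interferon binds the receptor IFNAR1-IFNAR2, whose kinases JAK1 and TYK2 activate the transcription factor complex ISGF3, which contains STAT2 and IRF9. ISGF3 binds interferon-stimulated response elements (ISRE) in the promoters of such genes, while gamma-activated sites (GAS) serve the response to interferon gamma. Fibroblasts carry the receptor, make interferon beta when viral nucleic acid is sensed, and keep a low tonic level of these transcripts without infection.

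The members' roles differ. Isg15 encodes a ubiquitin-like modifier, and Usp18 encodes the protease that removes it and also blocks signalling at the interferon receptor. IFIT proteins bind foreign or incompletely capped RNA (Ifit1) or act in complexes with one another (Ifit2, Ifit3). Bst2 encodes tetherin, which holds budding virions at the cell surface, Rsad2 encodes viperin, which makes a chain-terminating nucleotide, and Mx1 encodes a dynamin-like GTPase active against influenza virus. Rtp4 encodes a receptor transporter protein that binds viral RNA, and Ifi44 an interferon-induced protein linked to a GTPase-like fold.

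In the mm10 build (GRCm38.p6, RefSeq) Ifit2, Ifit3 and Ifit1 lay side by side on chromosome 19, at 34550550-34576534, 34583119-34588982 and 34640889-34650009. The near-identical copy Ifit3b (34607530-34613403) lay between Ifit3 and Ifit1, inside the span of Ifit1bl1 (34592888-34662981), which also holds Ifit1. Values of Ifit3 and Ifit1 are therefore uncertain, since the handling of shared reads is not stated. Rsad2 (chr12:26442743-26456452) had Cmpk2 12.7 kb away. Rtp4 (chr16:23520219-23614222) overlapped the end of Masp1, so its reads are uncertain to that extent. The other members lay at chr4:156199424-156200818 (Isg15), chr6:121245906-121270917 (Usp18), chr8:71534255-71537472 (Bst2), chr16:97447035-97462906 (Mx1) and chr3:151730922-151749910 (Ifi44). Mx1 is annotated there as a transcribed pseudogene, the reference strain carrying a defective allele, and the other members as protein coding.

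Promoter windows from 250 bases before to 50 after the annotated start were found for 7 of the 10 members (8 windows, Ifit2 having 2), not for Usp18, Rtp4 and Mx1. The ISRE core, GAAA and GAAA with any 2 bases between them, was searched on both strands, so that a match on the other strand reads TTTC and TTTC. They occurred in 5 of the 7 members, Isg15, Ifit1, Ifit3, Rsad2 and Bst2. Over the RefSeq table they occurred in 3.99% of the 27025 genes and in 3.44% of the 32851 windows. The 160 bases before the start are printed for those 5, since they show the letters through which ISGF3 is known to bind, in capitals. Each is given 5′ to 3′ on the strand of its gene, from RefSeq GRCm38.p6: Isg15 chr4:156200819-156200978 (minus strand), Ifit1 chr19:34640729-34640888 (plus), Ifit3 chr19:34583369-34583528 (plus), Rsad2 chr12:26456453-26456612 (minus) and Bst2 chr8:71537473-71537632 (minus).
Isg15: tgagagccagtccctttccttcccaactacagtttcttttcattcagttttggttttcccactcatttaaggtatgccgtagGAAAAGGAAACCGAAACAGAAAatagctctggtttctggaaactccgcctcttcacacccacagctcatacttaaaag
Ifit1: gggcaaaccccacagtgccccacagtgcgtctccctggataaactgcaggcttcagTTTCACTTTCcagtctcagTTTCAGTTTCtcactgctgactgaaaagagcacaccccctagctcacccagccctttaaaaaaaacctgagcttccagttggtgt
Ifit3: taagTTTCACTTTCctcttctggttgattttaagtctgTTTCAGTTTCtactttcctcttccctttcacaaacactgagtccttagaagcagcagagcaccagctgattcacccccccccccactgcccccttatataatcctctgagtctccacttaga
Rsad2: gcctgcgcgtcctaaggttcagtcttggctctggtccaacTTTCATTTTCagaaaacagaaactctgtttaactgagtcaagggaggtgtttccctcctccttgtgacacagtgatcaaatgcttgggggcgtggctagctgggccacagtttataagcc
Bst2: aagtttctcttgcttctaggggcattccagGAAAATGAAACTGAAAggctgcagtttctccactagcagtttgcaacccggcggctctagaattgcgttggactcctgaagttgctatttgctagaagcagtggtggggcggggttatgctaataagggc

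Isg15 carried 3 overlapping matches, the nearest to the start ending 57 bases before it. Bst2 carried 2 that overlap each other between 130 and 115 bases before the start. Ifit1 had separate matches beginning 104 and 85 bases before the start, Ifit3 had them at 156 and 122, and Rsad2 had 1 at 120. The GAS letters, TTC and GAA with any 3 bases between them, which read the same on both strands, occurred in Bst2, where they overlap the first ISRE match, and in 1 of the Ifit2 windows, against 8.3% of all windows. No ISRE letters were found in the windows of Ifi44 or Ifit2. CpG dinucleotides numbered 1 (Ifit3) to 11 (Bst2 and 1 Ifit2 window) per 300 bases, against a median of 7 over all windows. A match is a description of the letters, not a bound site.

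**Figure D1:**
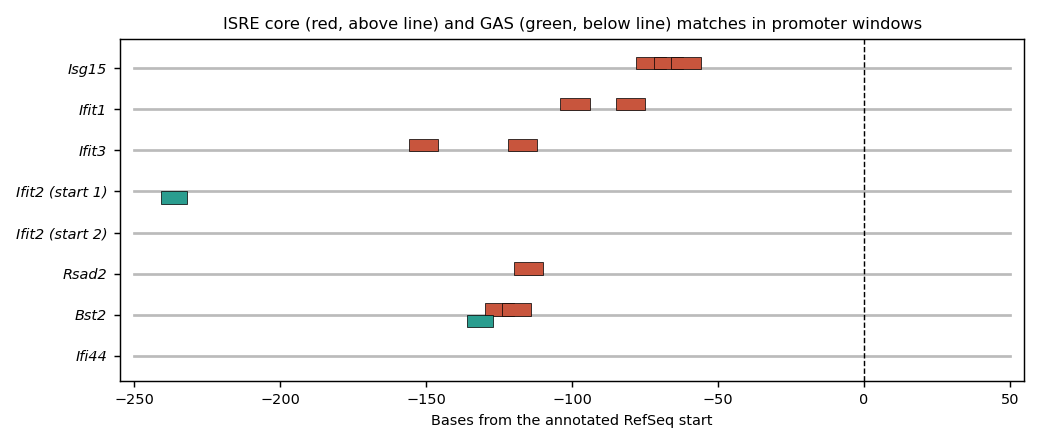
Position of each ISRE core match (red, above the line) and GAS match (green, below the line) in the 8 promoter windows, in bases from the annotated start (dashed line). The ISRE matches of Isg15, Ifit1, Ifit3, Rsad2 and Bst2 all lie between 156 and 57 bases before the start.

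Library totals were 27503472 to 36910532 reads for DAC and DMSO, and 31928320 to 47172427 for the siRNAs. Anp32e was 14.0 to 17.2 FPKM in WT and 4.87 to 7.48 in KO, and 16.9 to 21.4 against 4.36 to 6.12 RPKM, so KO libraries kept part of its reads. H2afz, a gene for H2A.Z, fell from 202 ± 2.56 to 17.2 ± 0.476 RPKM (SD, n = 3 each) with H2AZ siRNA in WT and from 194 ± 8.49 to 27.9 ± 2.18 in KO. H2afv, also a gene for H2A.Z, was called lower with H2AZ siRNA in both genotypes too (10.4% of all tested genes in WT and 19.0% in KO). All 8 fibroblast markers were at a mean of at least 1 in every group, and their summed level was 3261 to 3382 FPKM in WT DMSO, 2156 to 2294 in WT DAC, 1863 to 1903 in KO DMSO and 1769 to 1953 in KO DAC, and 1082 to 1147 RPKM in WT against 1116 to 1287 in KO siRNA libraries. In KO DMSO 5 of the 8 were called lower than in WT DMSO and 1 higher (22.9% and 19.6% of all tested genes). The macrophage marker Tyrobp was at 0 in all 8 groups, and 2 of 8 macrophage and blood cell markers reached a mean of 1 in each (summed level 9.64 to 19.1 FPKM and 3.20 to 6.74 RPKM). These were Cd68 and Cd14, except in KO DMSO, where Cd14 was at 0.670 ± 0.165 FPKM and Csf1r at 1.61 ± 0.332, against 0.299 ± 0.102 in WT DMSO (SD, n = 2 each). Mesothelial and epithelial markers differed with genotype and DAC: summed over 9 genes they were 8.55 to 10.8 FPKM in WT DMSO, 38.6 to 55.5 in WT DAC, 488 to 521 in KO DMSO and 78.8 to 95.9 in KO DAC, and 22.9 to 24.4 RPKM in WT against 118 to 145 in KO siRNA libraries. The KO DMSO libraries stood apart on the first principal component, at 66.2 and 66.8 against -29.9 to -1.88. Xist was 175 ± 7.96 FPKM in WT DMSO (SD, n = 2) and 0.751 ± 0.243 in KO DMSO (n = 2), and the Y-linked Ddx3y 0.00627 ± 0.00887 against 3.08 ± 0.0816, so genotype and the sex of the cells cannot be told apart. With DAC Xist was 162 ± 41.9 FPKM in WT and 33.9 ± 9.06 in KO (n = 3 each). All 5 sex-linked genes listed were called higher with DAC in KO (23.7% of all tested genes). None was called in either direction in WT (14.5% higher and 13.8% lower). In WT DAC replicate 3 and KO DAC replicate 1 protein-coding genes under 1 kb lay lower than in the other libraries of their group, by a median of -0.161 and -0.124 in log2 against their group mean, while genes over 4 kb stayed at -0.00814 and 0.0169. In WT DAC replicate 3 Isg15 (756 bases of counted length) lay at -0.49, Bst2 (764 bases) at -0.31, Ifit3 (1745 bases) at -0.24 and Ifi44 (6116 bases) at 0.25 in log2 against the group mean, and in KO DAC replicate 1 Isg15, Bst2 and Ifit3 each lay at -0.32 and Ifi44 at 0.15. The part of gene length in these deviations was not tested.

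All 10 members were measured in the DAC table with enough signal to be tested, among 16435 genes. In WT cells given DMSO their levels spanned 3.03 FPKM (Rsad2) to 156 FPKM (Bst2), in the order Bst2, Isg15, Ifit1, Ifit3, Rtp4, Usp18, Ifit2, Ifi44, Mx1 and Rsad2. For 8 members the group means ran WT DAC, KO DAC, WT DMSO, KO DMSO from high to low. Mx1 ran WT DAC, WT DMSO, KO DAC, KO DMSO, and Rsad2 ran KO DAC, WT DAC, KO DMSO, WT DMSO. The lowest group stood clear of the next for all 10, whereas WT DAC and KO DAC overlapped for Isg15, Usp18, Ifit3, Bst2, Ifi44 and Rsad2, and KO DAC and WT DMSO for Isg15, Ifit1, Ifit3 and Bst2. Such gaps were common: between KO DMSO and WT DMSO, 40.8% of all tested genes were lower and 34.0% higher without overlap. From KO DMSO to KO DAC, the lowest groups for Mx1, 33.3% were higher. Between KO DAC and WT DAC the shares were 18.3% lower and 18.6% higher.

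**Figure D2:**
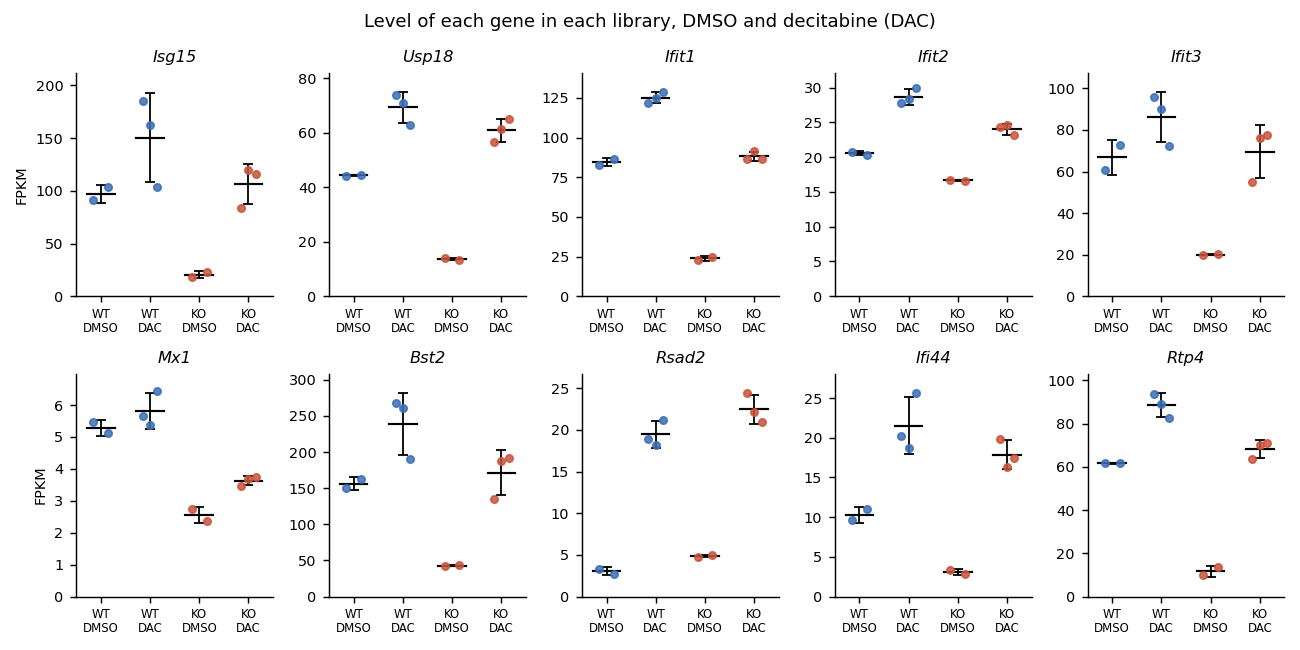
FPKM of each member in each library of the DAC table (points; blue WT, red KO), with the group mean (bar) and SD (whiskers). The KO DMSO libraries are the lowest for every member except Rsad2, for which the WT DMSO libraries are lowest.

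In KO cells given DMSO, 9 members were lower than in WT and Rsad2 was higher. Over all tested genes 22.9% were called lower and 19.6% higher in this comparison. The median member log2 fold change was -1.66, against -0.04 over all tested genes. With DAC the members rose in both genotypes, 7 of 10 in WT (14.5% of all genes called higher) and 10 of 10 in KO (23.7%), with none lower (13.8% and 21.6% of all genes). Their median log2 fold change was 0.57 in WT and 1.98 in KO, against -0.01 and 0.01 over all genes. The DAC response was larger in KO than in WT for 7 members (12.4% of all genes called in that direction) and smaller for none (11.7%). Between KO DAC and WT DAC, 4 members were lower (11.6%) and none was higher (11.1%). Counted by libraries that do not overlap, 9 members were lower and 1 higher in KO DMSO (40.8% and 34.0% of all genes), 8 were higher with DAC in WT (26.0%, and 27.8% lower), 10 were higher with DAC in KO (33.3%, and 31.3% lower), and 4 were lower in KO under DAC (18.3%, and 18.6% higher). The comparisons share groups, so their counts are not independent of one another. In bulk RNA, fewer cells of a type and less RNA per cell cannot be told apart.

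Isg15, the modifier, was 91.0 and 103 FPKM in the WT DMSO libraries, 18.1 and 23.1 in KO DMSO, 185, 163 and 103 in WT DAC, and 84.1, 119 and 116 in KO DAC. Both KO DMSO libraries lay far under all others, and WT DAC spread widely, its replicate 3 just above the higher WT DMSO library. The mean of KO DMSO was 4.71-fold lower than that of WT DMSO (log2 -2.19 ± 0.27 SE, adjusted p = 0.00024). DAC raised Isg15 5.16-fold in KO (log2 2.31 ± 0.25, adjusted p = 0.0001), whereas the WT value of 0.59 ± 0.25 did not pass (adjusted p = 0.116). Without WT DAC replicate 3 the WT value was 0.83 with an adjusted p of 0.0124 (0.42 to 0.83 over libraries left out), and KO was then lower than WT under DAC (-0.72, adjusted p = 0.0198, against -0.47 and 0.171 with all libraries). That difference of Isg15 was -0.30 without WT DAC replicate 1 (adjusted p = 0.424) and -0.31 without KO DAC replicate 1 (adjusted p = 0.401).

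Usp18, which strips ISG15 and damps the receptor, was 44.2 and 44.6 FPKM in WT DMSO, 13.9 and 13.3 in KO DMSO, 73.8, 71.0 and 63.0 in WT DAC, and 56.5, 61.4 and 64.9 in KO DAC. The untreated genotypes were 3.27-fold apart with no overlap, and the DAC-treated ones overlapped. The log2 rise of Usp18 with DAC was 0.63 ± 0.08 for WT and 2.08 ± 0.08 for KO, with adjusted p of 0.00057 and 2.7e-07. Between DAC-treated genotypes the difference of -0.18 ± 0.07 did not pass (adjusted p = 0.105), but did without WT DAC replicate 3 (-0.25, adjusted p = 0.0248). Of the other 4 genes of the ISG15 pathway, 3 were lower in KO DMSO (22.9% of all genes). Among them, the E1 enzyme Uba7 was lower by -0.58 ± 0.07 and the E3 ligase Trim25 by -0.38 ± 0.08. All 4 rose with DAC in each genotype (14.5% of all genes in WT and 23.7% in KO). Herc6, the main mouse E3 ligase for ISG15, went from 6.58 ± 0.372 to 12.5 ± 1.06 FPKM in WT and from 5.05 ± 0.00796 to 15.9 ± 1.54 in KO (SD, n = 2 for DMSO and 3 for DAC).

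Ifit1, the cap-sensing member, was 82.9 and 86.6 FPKM in WT DMSO, 22.6 and 25.0 in KO DMSO, 122, 125 and 129 in WT DAC, and 86.8, 91.3 and 86.3 in KO DAC. It had small spreads, and the DAC-treated KO libraries came to the level of WT given DMSO. The log2 difference was -1.79 ± 0.06 for KO against WT in DMSO (adjusted p = 1.5e-07) and -0.50 ± 0.05 in DAC (adjusted p = 0.00025). DAC raised it by 0.56 ± 0.06 in WT and 1.85 ± 0.06 in KO (adjusted p = 0.0002 and 1.1e-07).

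Ifit3 was 60.8 and 72.7 FPKM in WT DMSO, 19.8 and 20.2 in KO DMSO, 95.7, 90.1 and 72.5 in WT DAC, and 54.9, 75.9 and 77.7 in KO DAC. WT DAC replicate 3 fell within the WT DMSO range, so these groups overlapped. KO was 3.34-fold lower than WT in DMSO (log2 -1.68 ± 0.18, adjusted p = 0.00011), and DAC raised Ifit3 3.48-fold in KO (1.73 ± 0.17, adjusted p = 5.4e-05). In WT the increase of 0.36 ± 0.17 did not pass (adjusted p = 0.152). The copy Ifit3b went along, at 33.4 ± 3.01 in WT DMSO, 9.40 ± 0.308 in KO DMSO (SD, n = 2 each), 40.0 ± 3.19 in WT DAC and 33.3 ± 4.89 in KO DAC (n = 3 each).

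Ifit2, the neighbour of Ifit3, behaved otherwise: it was 20.8 and 20.4 FPKM in WT DMSO, 16.7 and 16.6 in KO DMSO, 27.8, 28.4 and 29.9 in WT DAC, and 24.3, 24.7 and 23.2 in KO DAC. The groups did not overlap, yet the distances between them were short. KO was 1.23-fold lower in DMSO (log2 -0.29 ± 0.06, adjusted p = 0.003) and 1.19-fold lower in DAC (-0.24 ± 0.05, adjusted p = 0.0057). DAC raised it by 0.46 ± 0.05 in WT and 0.50 ± 0.05 in KO, and the difference of these responses, 0.04 ± 0.07, did not pass (adjusted p = 0.721).

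Bst2, tetherin, had the highest level of the members in each DAC-table group: 150 and 163 FPKM in WT DMSO, 42.3 and 43.4 in KO DMSO, 267, 260 and 190 in WT DAC, and 136, 188 and 191 in KO DAC. The low libraries of the DAC groups were again WT DAC replicate 3 and KO DAC replicate 1. KO was 3.65-fold lower in DMSO (log2 -1.84 ± 0.20, adjusted p = 9.6e-05), and DAC raised Bst2 4.01-fold in KO (1.96 ± 0.18, adjusted p = 3.8e-05). In WT the rise of 0.60 ± 0.18 passed narrowly (adjusted p = 0.0376) and did not pass without WT DMSO replicate 1 or 2 or WT DAC replicate 1 or 2 (adjusted p 0.0997 to 0.17). KO against WT in DAC was -0.48 ± 0.16 (adjusted p = 0.0652), -0.64 without WT DAC replicate 3 (adjusted p = 0.0153) and -0.32 without KO DAC replicate 1, with an adjusted p of at most 0.185 over the libraries left out.

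Rsad2, viperin, was the exception in direction. It was 3.36 and 2.70 FPKM in WT DMSO, 4.78 and 4.94 in KO DMSO, 18.9, 18.2 and 21.2 in WT DAC, and 24.4, 22.1 and 21.0 in KO DAC. Every DAC library was above every DMSO library, and KO DMSO was above WT DMSO. Rsad2 was 1.60-fold higher in KO given DMSO (log2 0.54 ± 0.11, adjusted p = 0.0032). DAC raised it 6.42-fold in WT and 4.63-fold in KO (2.35 ± 0.10 and 2.00 ± 0.10, adjusted p = 4.2e-06 and 9.2e-07), and the difference of the responses, -0.34 ± 0.14, did not pass (adjusted p = 0.108). Its neighbour Cmpk2, a nucleotide kinase gene induced with it, was lower in KO DMSO (-0.64 ± 0.08, adjusted p = 0.00019; named after its values were seen) and rose with DAC by 1.66 ± 0.07 in WT and 2.51 ± 0.07 in KO.

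Mx1, the GTPase, was 5.45 and 5.12 FPKM in WT DMSO, 2.74 and 2.37 in KO DMSO, 5.66, 5.36 and 6.45 in WT DAC, and 3.46, 3.67 and 3.74 in KO DAC. The genotypes stayed apart with and without DAC, at log2 -0.82 ± 0.10 in DMSO (adjusted p = 0.00017) and -0.56 ± 0.08 in DAC (adjusted p = 0.0014). DAC raised it in KO by 0.38 ± 0.09 (adjusted p = 0.0073), a call lost without KO DMSO replicate 2 (adjusted p = 0.0685). The WT value of 0.12 ± 0.09 did not pass (adjusted p = 0.377). Mx2, the paralogue, was 4.08 and 4.30 FPKM in KO DMSO and 11.3 and 12.1 in WT DMSO (log2 -1.29 ± 0.08).

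Ifi44 was 9.61 and 11.0 FPKM in WT DMSO, 3.34 and 2.802 in KO DMSO, 20.2, 18.7 and 25.6 in WT DAC, and 19.9, 16.3 and 17.5 in KO DAC. The DAC groups overlapped and both lay above WT DMSO. The log2 difference was -1.48 ± 0.15 for KO in DMSO (adjusted p = 7.4e-05), and DAC raised it by 0.98 ± 0.14 in WT and 2.21 ± 0.14 in KO (adjusted p = 0.001 and 3.9e-06).

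Rtp4 was 61.6 and 61.8 FPKM in WT DMSO, 9.94 and 13.5 in KO DMSO, 93.7, 89.0 and 82.6 in WT DAC, and 63.7, 70.0 and 71.2 in KO DAC. No groups overlapped, and the distance between the genotypes shrank from 5.25-fold in DMSO to 1.30-fold in DAC. The log2 difference was -2.31 ± 0.12 in DMSO (adjusted p = 1.5e-06) and -0.37 ± 0.10 in DAC (adjusted p = 0.0318). The latter did not pass without any 1 of WT DAC replicates 1 and 2 or the 3 KO DAC libraries (adjusted p 0.0588 to 0.101). DAC raised Rtp4 by 2.46 ± 0.11 in KO (adjusted p = 7.2e-07) and by 0.51 ± 0.11 in WT (adjusted p = 0.0101), the latter lost without WT DMSO replicate 1 or 2 (adjusted p 0.0559 and 0.0654).

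**Figure D3:**
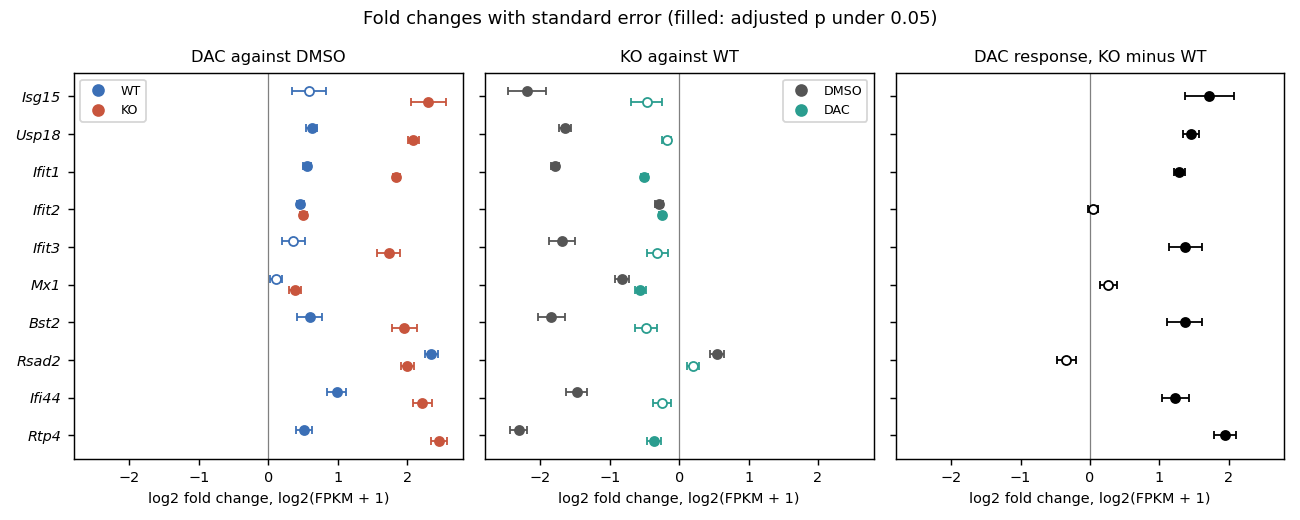
Log2 fold change with SE of each member for DAC against DMSO in each genotype (left), KO against WT under each treatment (middle), and the DAC response in KO minus that in WT (right). Filled points have an adjusted p under 0.05; Rsad2 is the member to the right of 0 in KO against WT in DMSO, and the right panel shows Ifit2, Mx1 and Rsad2 unfilled.

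The interaction, the DAC response in KO minus that in WT, was largest for Rtp4 (1.95 ± 0.16), Isg15 (1.72 ± 0.35) and Usp18 (1.46 ± 0.11), followed by Ifit3 (1.37 ± 0.24), Bst2 (1.36 ± 0.25), Ifit1 (1.29 ± 0.08) and Ifi44 (1.23 ± 0.20), with adjusted p from 1.5e-05 (Ifit1) to 0.0079 (Isg15). It did not pass for Rsad2, Mx1 (0.26 ± 0.12, adjusted p = 0.166) and Ifit2. These 7 calls and the 10 calls of KO against WT in DMSO kept their direction and side of the threshold under every alternative run. The KO DMSO group enters all of them, and it is the group in which mesothelial and epithelial markers were highest; genes under 1 kb were also lower in it, by a median log2 of -0.25 against WT DMSO, while those over 4 kb were at -0.02. In KO DMSO summed fibroblast markers were 1863 to 1903 FPKM, lower than in WT DMSO (3261 to 3382). That lay within the range of KO DAC (1769 to 1953). Of the 8 markers, 3 were called higher and 5 lower with DAC in KO (23.7% and 21.6% of all genes). Sex-linked genes also differed between KO DMSO and each of these groups. The part of any of these in the result was not tested.

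Of the 20 type I and III interferon genes none reached the level tested in the DAC table, 12 to 15 of them were at 0 in each group, and their summed level was 0.224 to 1.56 FPKM. Ifnb1, interferon beta, was at 0 in both DMSO groups and at 0.0671 ± 0.0607 and 0.110 ± 0.0551 FPKM in WT and KO DAC (SD, n = 3), where 1 read in a gene of 1 kb is worth 0.0271 to 0.0364 FPKM. Of 9 receptor and kinase genes, 3 were lower and 2 higher in KO DMSO, where 22.9% and 19.6% of all genes were called, the higher ones being Ifnlr1 (1.33 ± 0.09) and Il10rb (0.60 ± 0.11), which form the interferon lambda receptor. DAC lowered 4 and raised 2 of the 9 in KO (21.6% and 23.7% of all genes), Ifnar1 falling by -0.45 ± 0.07. Of 7 transcription factors, 4 were lower and 1 higher in KO DMSO: the ISGF3 subunit Stat2 was 22.5 ± 2.39 against 54.6 ± 2.23 FPKM (SD, n = 2 each; log2 -1.24 ± 0.08), and Irf5 was 25.8 ± 3.60 against 0.891 ± 0.164 (3.82 ± 0.12). DAC raised 4 of the 7 in WT (14.5% of all genes) and 5 in KO (23.7%). Irf7, which amplifies interferon transcription, rose from 19.9 ± 0.881 to 61.9 ± 5.85 FPKM in WT (1.58 ± 0.11). In KO Irf7 rose from 10.8 ± 0.319 to 55.4 ± 6.43 (2.25 ± 0.11), while Irf5 fell by -2.34 ± 0.11.

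Of 23 other antiviral effectors tested, 18 were lower and 1 higher in KO DMSO (22.9% and 19.6% of all genes). DAC raised 19 and lowered 1 in WT (14.5% and 13.8%), and raised 21 and lowered none in KO (23.7% and 21.6%). Trim30a, which restrains inflammatory signalling, was 15.3 ± 1.26 FPKM in WT DMSO, 2.87 ± 0.354 in KO DMSO (SD, n = 2 each), 31.9 ± 1.47 in WT DAC and 21.2 ± 0.452 in KO DAC (n = 3 each). Isg20, an exonuclease gene, rose in WT by 1.54 ± 0.15. For 17 of the 23 the DAC response was larger in KO and for 1 smaller (12.4% and 11.7% of all genes). In KO DAC 12 were lower and 1 higher than in WT DAC (11.6% and 11.1%).

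The siRNA experiment compared the genotypes in separate libraries without DAC. Its RPKM values come from a table made apart from the FPKM table, so levels are not compared across them. In it 9 members were tested among 12668 genes. Mx1, at 0.0687 to 0.282 RPKM (8 to 47 reads), was under the level tested. It was 0.232 ± 0.0292 RPKM in WT and 0.253 ± 0.0385 in KO with NT siRNA (SD, n = 3 each). With H2AZ siRNA it was 0.0885 ± 0.0324 in WT and 0.120 ± 0.0280 in KO (SD, n = 3 each), and the genotypes overlapped under each siRNA. With NT siRNA the 9 spanned 1.03 (Rsad2) to 132 RPKM (Bst2) in WT. All 9 were lower in KO than in WT with NT siRNA (40.4% of all genes called lower and 23.7% higher), and 8 of 9 with H2AZ siRNA (42.7% and 20.2%). Ifi44 reached a value of 1 only in WT libraries, and Rsad2 only in libraries of WT with NT siRNA and KO with H2AZ siRNA. Their calls between those groups and the others are thus conditioned on the groups where they were high. Without a filter on low values the calls of both were kept. The median member log2 fold change was -0.78 and -0.77, against -0.10 and -0.12 over all tested genes. Centring each library on its median moved the all-gene median by 0.125 and 0.154 and the calls from 3004 higher and 5122 lower to 4288 and 3780, and from 2563 and 5409 to 4281 and 3635. The 9 and 8 lower members were lower and called with centring too. By libraries that do not overlap, 9 were lower with NT siRNA (41.3% of all genes, and 25.5% higher), and 8 lower and Rsad2 higher with H2AZ siRNA (47.0% and 23.0%).

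**Figure D4:**
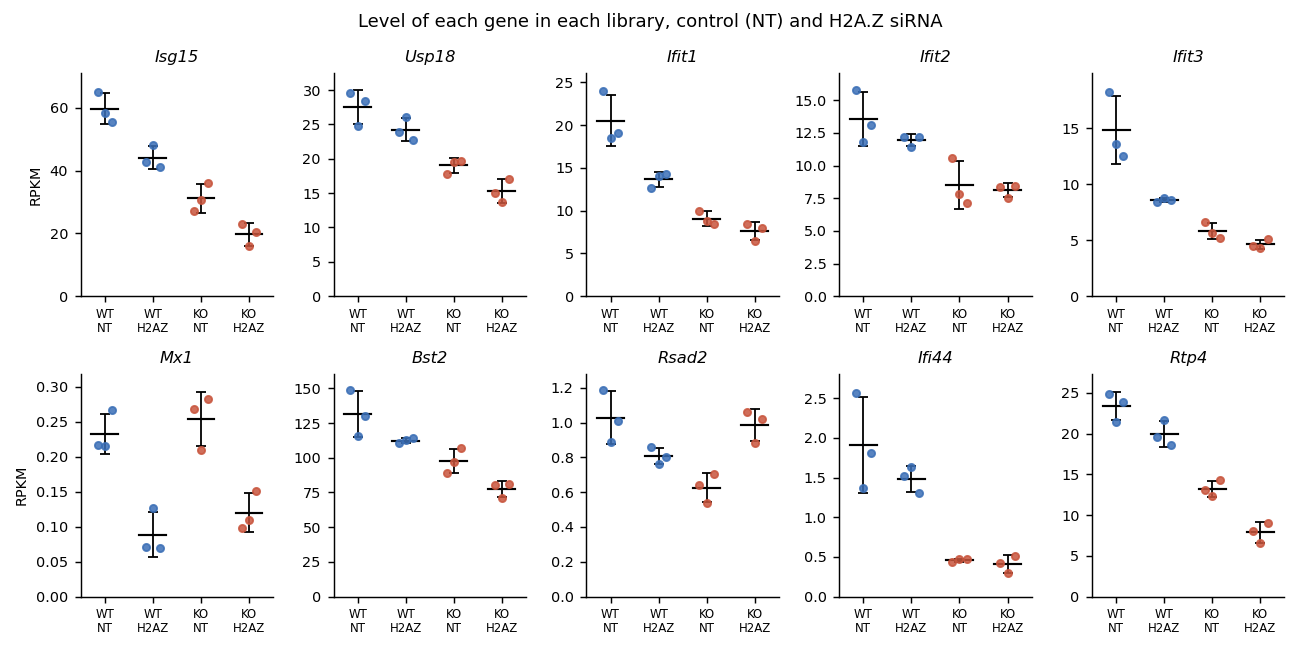
RPKM of each member in each library of the siRNA table (points; blue WT, red KO), with the group mean (bar) and SD (whiskers). The lowest group mean is KO with H2AZ siRNA for 8 members, KO with NT siRNA for Rsad2 and WT with H2AZ siRNA for Mx1.

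Isg15 was 65.1, 58.5 and 55.6 RPKM in WT NT, 27.0, 30.5 and 36.2 in KO NT, 42.8, 48.2 and 41.2 in WT with H2AZ siRNA, and 23.0, 15.9 and 20.5 in KO with H2AZ siRNA. None of the 4 groups overlapped. KO was lower by -0.92 ± 0.13 with NT siRNA and -1.13 ± 0.13 with H2AZ siRNA (adjusted p = 9.3e-05 and 2.2e-05). H2AZ siRNA lowered Isg15 in KO by -0.64 ± 0.13 (adjusted p = 0.0047) and in WT by -0.43 ± 0.13 (adjusted p = 0.0459), the WT call being lost without any 1 of the 6 WT libraries (adjusted p 0.0568 to 0.139).

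Rtp4 was 24.8, 21.4 and 23.9 RPKM in WT NT, 13.0, 12.3 and 14.3 in KO NT, 19.6, 21.7 and 18.6 in WT with H2AZ siRNA, and 8.05, 6.54 and 9.04 in KO with H2AZ siRNA. The WT groups overlapped and the KO groups did not. Its log2 change with H2AZ siRNA was -0.69 ± 0.10 in KO (adjusted p = 0.00067) and -0.22 ± 0.10 in WT, which did not pass (adjusted p = 0.167). Usp18 followed a like order, at 27.5 ± 2.53 RPKM in WT NT, 19.0 ± 1.04 in KO NT, 24.2 ± 1.67 in WT with H2AZ siRNA and 15.3 ± 1.69 in KO with H2AZ siRNA (SD, n = 3 each).

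Ifit3 was 18.3, 13.6 and 12.6 RPKM in WT NT, 6.59, 5.61 and 5.24 in KO NT, 8.38, 8.80 and 8.62 in WT with H2AZ siRNA, and 4.47, 4.33 and 5.11 in KO with H2AZ siRNA. The 4 groups did not overlap, and with NT siRNA KO was lower by -1.20 ± 0.12 (adjusted p = 5.4e-06). H2AZ siRNA lowered it in WT by -0.70 ± 0.12 (adjusted p = 0.0025), and the KO value was -0.27 ± 0.12 (adjusted p = 0.11). Ifit1 showed the same calls, -0.55 ± 0.11 for WT and -0.23 ± 0.11 for KO with adjusted p of 0.0069 and 0.151, from 20.5 ± 2.97 RPKM in WT NT and 9.08 ± 0.825 in KO NT (SD, n = 3 each). For Ifit2, 13.6 ± 2.05 in WT NT and 8.53 ± 1.82 in KO NT, H2AZ siRNA gave -0.16 ± 0.12 and -0.05 ± 0.12, neither of which passed (adjusted p = 0.424 and 0.811).

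Bst2 was 149, 116 and 130 RPKM in WT NT, 89.2, 96.8 and 107 in KO NT, 110, 113 and 114 in WT with H2AZ siRNA, and 80.4, 71.2 and 81.0 in KO with H2AZ siRNA. KO with H2AZ siRNA was the lowest group, with no overlap. The change with H2AZ siRNA was -0.33 ± 0.09 in KO (adjusted p = 0.0211) and -0.22 ± 0.09 in WT (adjusted p = 0.125). Ifi44 had few reads in KO, at 0.438, 0.471 and 0.469 RPKM with NT siRNA against 2.56, 1.37 and 1.81 in WT, and KO was lower under both siRNAs (-0.98 ± 0.12 and -0.82 ± 0.12, adjusted p = 4.2e-05 and 0.00016). At such levels the pseudocount shrinks the log2 value: Ifi44 was 4.17-fold and 3.63-fold lower by the ratio of means, and -2.01 and -1.90 with limma-voom on the recovered reads. It passed the filter only through its WT libraries.

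Rsad2 again departed from the rest. It was 1.19, 0.888 and 1.01 RPKM in WT NT, 0.642, 0.536 and 0.703 in KO NT, 0.858, 0.765 and 0.803 in WT with H2AZ siRNA, and 1.06, 0.885 and 1.02 in KO with H2AZ siRNA. In KO all 3 H2AZ siRNA libraries were above all 3 NT libraries. The rise was 0.29 ± 0.07 in log2 (adjusted p = 0.0143; adjusted p = 0.051 without KO H2AZ siRNA replicate 1). With NT siRNA it was lower in KO (-0.32 ± 0.07, adjusted p = 0.0026), the opposite direction to DMSO in the DAC experiment. With limma-voom on the recovered reads the values of Rsad2 were 0.65 for the rise in KO and -0.71 for KO against WT. With H2AZ siRNA the genotype difference of 0.14 ± 0.07 did not pass (adjusted p = 0.126). Rsad2 passed the filter only through libraries of WT NT and of KO with H2AZ siRNA, the groups where it was highest.

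**Figure D5:**
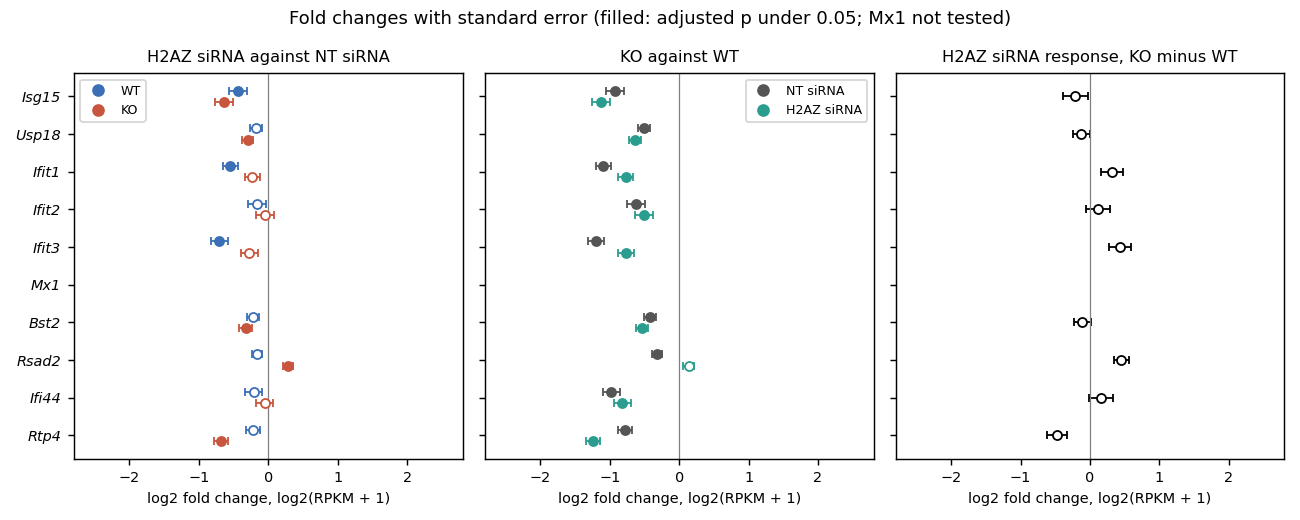
Log2 fold change with SE of the 9 tested members for H2AZ siRNA against NT siRNA in each genotype (left), KO against WT under each siRNA (middle), and the H2AZ siRNA response in KO minus that in WT (right). Filled points have an adjusted p under 0.05; no member is filled in the right panel.

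Counted over the members, H2AZ siRNA lowered 3 of 9 in WT (Ifit3, Ifit1 and Isg15) and raised none, where 10.4% of all genes were called lower and 4.88% higher. In KO it lowered 4 (Rtp4, Isg15, Bst2 and Usp18) and raised Rsad2, where 19.0% were called lower and 6.56% higher. By libraries that do not overlap, 5 members were lower in WT (24.3% of all genes, and 13.7% higher), and 5 lower and 1 higher in KO (27.9% and 11.0%). Median centring moved the all-gene calls from 618 higher and 1315 lower to 1306 and 878 in WT, and from 831 and 2404 to 2010 and 1367 in KO, and left 2 members lower in KO, Rtp4 and Isg15, and 2 in WT, Ifit3 and Ifit1 (Isg15 in WT -0.37, adjusted p = 0.0724). Usp18 (-0.30 ± 0.09, adjusted p = 0.025) was also lost in KO without KO NT replicate 2 or 3 or KO H2AZ siRNA replicate 1 or 2 (adjusted p 0.0626 to 0.1), and Bst2 without KO NT replicate 3 or KO H2AZ siRNA replicate 2 (adjusted p 0.0812 and 0.085). The difference between the genotypes' responses passed for no member (limma; 0.00789% of all genes called higher and 0.0% lower), nor with limma-voom on the recovered reads. The 1 gene called with limma was H2afz itself (0.72), so this target of the siRNA fell less in KO than in WT. The part of this in the comparison of responses was not tested. At an unadjusted limma p under 0.05 stood 3 of the 9 members and 1095 of the 12668 tested genes. The 3 were Rsad2 (0.45 ± 0.10), Rtp4 (-0.47 ± 0.14) and Ifit3 (0.43 ± 0.16), with a limma adjusted p of 0.243, 0.395 and 0.497. 7SL RNA made up 14.1 to 16.3% of the reads of WT siRNA libraries and 18.0 to 21.6% of those of KO. In KO with NT siRNA, 4 of the 5 sex-linked genes were called higher and Xist lower (-2.57), where 23.7% and 40.4% of all genes were called. Genes over 4 kb lay at a median log2 of -0.18 in KO against WT with NT siRNA and -0.22 with H2AZ siRNA. Those under 1 kb were at 0.02 in both. The part of any of these in the genotype difference was not tested.

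Among the other genes of the pathway in the siRNA experiment, 17 of 21 antiviral effectors were lower and 2 higher in KO with NT siRNA. Over all tested genes 40.4% were called lower and 23.7% higher there. The plant-homeodomain gene Phf11d was lower by -1.87 ± 0.09 and Samd9l, which blocks viral translation, by -1.73 ± 0.15. H2AZ siRNA lowered 3 of the 21 in WT and 7 in KO, where 10.4% and 19.0% of all genes were called lower, and raised none. Of the 7 transcription factors, none passed in WT and 3 were lower in KO with H2AZ siRNA, among them Stat2 by -0.36 ± 0.08. Irf5 was 2.58 ± 0.348 RPKM in KO NT and 0.220 ± 0.0134 in WT NT (SD, n = 3 each; log2 1.55 ± 0.08). Only 1 of the 20 interferon genes reached the level tested, and it passed in none of the comparisons.

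To see which genes had the most similar pattern, z-scores over the libraries of each table were averaged over the 9 members tested in both and correlated with 11836 genes over all 22 libraries. Trim30a (r = 0.985), Tor3a (0.984), Parp9 (0.983), Ddx58 (0.979) and Slfn8 (0.978) came first; Ddx58 encodes the RNA sensor RIG-I and Parp9 an ADP-ribosyltransferase-family protein. With a pseudocount of 0.1 the first was Tor3a and Slfn8 was at rank 7. The libraries share groups and depth, so r is a description. Single members were nearest to Adar, the double-stranded RNA editing enzyme (Isg15, Usp18 and Rtp4, r = 0.984, 0.983 and 0.992), Parp9 (Bst2, 0.974), Ddx58 (Ifit1, 0.978), Gbp3 (Ifit2, 0.961), Ifit3b (Ifit3, 0.993) and Gbp7 (Ifi44, 0.982). Rsad2 had r = 0.449 with the mean of the other 8 members, whose own values ran from 0.917 (Ifit2) to 0.979 (Ifit1). Its nearest gene was the chemokine gene Ccl5 (0.891), which was 4.78 ± 1.00 FPKM in WT DMSO, 3.20 ± 0.726 in KO DMSO (SD, n = 2 each), 29.3 ± 3.01 in WT DAC and 25.9 ± 1.21 in KO DAC (n = 3 each).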

How the data were processed

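The authors deposited FPKM values for the DAC experiment and RPKM values for the siRNA experiment, per the file headers; both scale reads by gene length and by the library's total. The submitters' processing notes name STAR, Bowtie2 and deepTools with the build mm10. The sources used here do not state versions, read counter, annotation or strand setting. The kit is stranded per the labels' protocols, but without the counter's setting overlapping genes are uncertain.

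The members and all gene lists were chosen with earlier results of these data known. Steps between the values gave library totals and gene lengths, with which each of the 35023 genes above 0 came to whole reads (tolerance 0.01). For genes with few reads this is no check of the length: Ptprc and Emcn came out at 15 bases, against spans of 112898 and 90008. A gene was tested where 2 libraries (DAC) or 3 (siRNA) reached a value of 1. A single limma model (3.58.1, R 4.3.3, trend on) per experiment covered its 4 groups on the log2(value + 1) scale, and p-values were adjusted by Benjamini-Hochberg over all tested genes of a contrast. A gene was called at an adjusted p under 0.05. A fold change on this scale understates the change of low genes. Named genes were the 10 members, up to 2 called genes per list and contrast with the largest change, the genes whose profile was most alike, and Anp32e, H2afz and H2afv. The fit was tested on simulated data. Other steps ran in Python 3.11.15 (numpy 2.4.6; pandas 2.3.3; figures with matplotlib 3.10.9).

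The labels number the replicates within each group. The fits reported above used no pairing. The numbers were judged to pair libraries only for H2AZ siRNA against NT siRNA in KO. There same-numbered libraries deviated together from their group means across genes (r = 0.156, 0.144 and 0.270), and others reached at most 0.0633. This comes from the data, not from a stated shared culture or day. Same-numbered libraries of KO and WT also had positive r, 0.0234 to 0.319 with NT siRNA and 0.0370 to 0.0739 with H2AZ siRNA. Differently numbered ones there reached 0.177 and 0.0411. Alternatives were no filter, a filter at 5, a pseudocount of 0.1, median centring, the replicate block, only the groups compared, limma-voom on the recovered reads and leaving out each library in turn. Leaving out the pair of libraries that stands apart in each experiment (WT DAC 3 with KO DAC 1, and WT NT 1 with KO NT 1), and the replicate block with only the KO siRNA groups, were added after the data were seen. The CUT&Tag samples were not analysed here.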

Additional observations from a re-analysis of the deposited data

Results flagged for a closer look

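For 7 members the DAC response differed between the genotypes by a test of the difference itself (the limma interaction): Rtp4 by 1.95, Isg15 by 1.72, Usp18 by 1.46, Ifit3 by 1.37, Bst2 by 1.36, Ifit1 by 1.29 and Ifi44 by 1.23 on the log2 scale, each larger in KO. The KO DMSO libraries, which enter each of these differences, held the highest summed level of mesothelial and epithelial markers (488 to 521 FPKM, against 78.8 to 95.9 in KO DAC). Whether those markers bear on the difference was not tested.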

How the results depend on the processing

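Of 1345 member values recomputed under the alternatives, 1285 kept direction and side of the threshold, 40 lost a call, 13 gained one and 7, all of them uncalled, changed sign; none of the 849 values of called members changed sign. The counts that moved by over 1.5 times were the members lower in KO under DAC, 7 in place of 4 without WT DAC replicate 3 (3 to 7 over libraries left out), those higher in KO under H2AZ siRNA, 1 in place of 0 with median centring (Rsad2, 0.29, adjusted p = 0.0016), and, for H2AZ siRNA in KO, those lower, 2 in place of 4 with median centring (2 to 4 over libraries left out), and those higher, 0 in place of 1 with a filter at 5, where Rsad2 is not tested (0 to 1 over libraries left out). Leaving out libraries gave 5 to 8 members higher with DAC in WT, 9 to 10 in KO, and 2 to 3 lower with H2AZ siRNA in WT. The values that changed sign were Ifit2 with H2AZ siRNA in KO (0.037 with centring, 0.101 without KO NT replicate 1 and without both libraries that stand apart, 0.00031 without KO H2AZ siRNA replicate 2; -0.155 to 0.101 over libraries left out), Ifi44 in the same comparison (0.033 with centring, 0.0084 without KO H2AZ siRNA replicate 2; -0.106 to 0.0084 over libraries left out) and the Ifi44 siRNA interaction (-0.0076 without both libraries that stand apart). The cause was not tested.

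With the replicate block, which the check of the numbers supports only for H2AZ siRNA in KO, where it changed no member's call, calls were lost for Rtp4 in KO against WT under DAC (adjusted p = 0.0544), Bst2 with DAC in WT (0.0647) and Isg15 with H2AZ siRNA in WT (0.0563); in those comparisons same-numbered libraries correlated at -0.225 to 0.126, -0.0248 to 0.00134 and -0.0885 to 0.0126. Depth limits the members of low level: in the siRNA libraries Mx1 had 8 to 47 reads, Rsad2 91 to 228 and Ifi44 80 to 695.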
